A study of Mus musculus with 16 samples.

Results

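Promoter Capture Hi-C (P-CHi-C) of mouse liver was examined for the interactions that were listed at zeitgeber time 6 (ZT6, the middle of the light phase) and at no other time of day. An interaction is a pair of HindIII restriction fragments, of which at least one, the bait, carries a gene promoter, and its CHiCAGO score measures how far the reads of the pair exceed those expected from distance and noise. The interactions were chosen by measured values: a score of 7 or more in the ZT6 list and absence from the lists of ZT0, ZT12 and ZT18. There were 2808 of them, out of 77247 interactions with a score of 7 or more at ZT6, a share of 3.64% (95% Wilson interval 3.51 to 3.77%), and out of 247177 distinct interactions in the 4 lists. They are called ZT6-only interactions below. Which list is that of ZT6 was taken from the sample labels. A summary supplied with the study orders the list lengths differently, as described with the circadian genes below. Which order is right could not be decided here, so every statement on ZT6 holds for the order of the labels.

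The livers came from male C57BL/6 mice without genetic modification, labelled as 8 weeks old and fed freely under a cycle of 12 h light and 12 h dark, with ZT0 at lights on and ZT12 at lights off. Per the methods, mice of that age spent 2 weeks in this cycle before the livers were taken. Liver pools of 2 animals, 3 per timepoint, gave 16 samples over the 4 timepoints because 1 pool of each was run on 2 lanes. The authors called interactions on the pools combined, so a timepoint is represented by a single list without replicate error, and differences between timepoints are given without a test. The lists keep scores of 5 or more, so absence from a list means that no such score was listed, and not an absence of reads. The lists do not show whether an absent pair was scored at all, and read depths were not analysed here.

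As background, promoters meet distal fragments and each other through folding of the chromatin fibre, and such contacts can bring enhancers near the genes they regulate. In the liver the circadian clock, a feedback loop of the activators Clock and Arntl with the repressors of the Per, Cry and Nr1d families, times the transcription of many metabolic genes over the day. A contact list per timepoint is one way to ask whether promoter contacts also vary over the day.

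Some of the fragments and promoters concerned are shown here as sequence. The shortest non-promoter fragments give the whole contacted piece, and 3 of them, each found once in the genome as an exact copy and lying outside annotated genes, had the highest scores among the contacted non-promoter fragments of at most 300 bases outside annotated genes. The fragment contacted by Ovgp1, an oviduct glycoprotein gene, lies at chr3:106264534-106264826 (build mm9), 485.0 kb from its bait, and scored 8.97. The fragment contacted by Frmd6 lies at chr12:71602753-71603047, 324.2 kb away, and scored 8.53. The fragment contacted by BC024582 lies at chr4:32297101-32297350, 365.8 kb away, and scored 8.42. All are written along the plus strand, with capitals for the remnants of the HindIII site at both ends and, in the last, for an AP-1 motif (TGANTCA, searched on both strands).
Ovgp1 other end: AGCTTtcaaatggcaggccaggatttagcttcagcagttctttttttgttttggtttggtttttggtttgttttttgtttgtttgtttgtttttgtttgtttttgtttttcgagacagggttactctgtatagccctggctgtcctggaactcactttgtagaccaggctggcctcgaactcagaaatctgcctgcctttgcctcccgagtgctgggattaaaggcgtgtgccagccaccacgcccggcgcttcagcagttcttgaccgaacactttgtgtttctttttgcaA
Frmd6 other end: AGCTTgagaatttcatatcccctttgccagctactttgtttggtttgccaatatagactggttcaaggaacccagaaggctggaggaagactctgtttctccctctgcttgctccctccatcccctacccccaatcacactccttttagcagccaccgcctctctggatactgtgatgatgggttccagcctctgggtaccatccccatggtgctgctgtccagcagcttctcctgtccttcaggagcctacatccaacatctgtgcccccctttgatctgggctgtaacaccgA
BC024582 other end: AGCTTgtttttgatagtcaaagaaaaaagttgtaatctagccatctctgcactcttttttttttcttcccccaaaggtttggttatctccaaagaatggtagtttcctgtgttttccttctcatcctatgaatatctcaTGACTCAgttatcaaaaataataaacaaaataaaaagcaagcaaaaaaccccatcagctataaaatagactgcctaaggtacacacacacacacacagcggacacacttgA

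The promoters shown next are those of the gene on the most recurrent fragment (Lamb2), of 2 olfactory receptor genes whose baits were listed at ZT6 and at no other timepoint, and of Nr1d1, a clock repressor with a ZT6-only interaction. Each is the stretch of 250 bases before the gene start from RefSeq on build GRCm38.p6, written in the direction of transcription. Capitals mark a D-box (TTANGTAA, a motif bound by clock output factors of the PAR bZip family), which was found in 2.06% of 32851 such promoter windows. The marked stretches match the motif on the strand opposite to the one written. Lamb2 lies at chr9:108479612-108479861 on the plus strand, Olfr1162 at chr2:88050623-88050872, Olfr1099 at chr2:86959457-86959706 and Nr1d1 at chr11:98775378-98775627, these 3 on the minus strand. The GC content of the windows is 43.6%, 29.2%, 19.6% and 54.8% in that order.
Lamb2 promoter: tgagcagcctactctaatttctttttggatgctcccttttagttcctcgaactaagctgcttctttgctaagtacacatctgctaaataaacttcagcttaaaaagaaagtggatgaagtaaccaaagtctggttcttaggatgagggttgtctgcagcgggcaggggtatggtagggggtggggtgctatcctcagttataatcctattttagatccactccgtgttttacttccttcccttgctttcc
Olfr1162 promoter: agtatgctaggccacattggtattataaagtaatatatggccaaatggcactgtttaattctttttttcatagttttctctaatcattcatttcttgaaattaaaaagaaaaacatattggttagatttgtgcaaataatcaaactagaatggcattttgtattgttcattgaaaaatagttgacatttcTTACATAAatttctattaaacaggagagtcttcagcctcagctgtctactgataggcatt
Olfr1099 promoter: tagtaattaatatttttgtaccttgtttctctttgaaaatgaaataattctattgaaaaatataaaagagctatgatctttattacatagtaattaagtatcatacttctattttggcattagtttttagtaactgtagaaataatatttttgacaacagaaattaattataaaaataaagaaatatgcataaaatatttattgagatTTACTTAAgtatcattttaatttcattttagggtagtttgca
Nr1d1 promoter: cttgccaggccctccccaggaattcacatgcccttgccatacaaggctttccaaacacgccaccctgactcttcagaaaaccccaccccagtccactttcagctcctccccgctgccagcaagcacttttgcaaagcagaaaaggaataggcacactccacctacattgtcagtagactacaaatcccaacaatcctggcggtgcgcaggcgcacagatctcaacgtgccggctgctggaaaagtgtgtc

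By choice every ZT6-only interaction scored 7 or more, and the median was 7.64 with a highest value of 51.88. Most lay close to the threshold: 1860 scored from 7 to below 8, 808 from 8 to below 10, 126 from 10 to below 15 and 14 scored 15 or more. Just inside the threshold, 301 scored from 7 to below 7.1, and just outside it another 301 ZT6-exclusive pairs scored from 6.9 to below 7. The other interactions with a score of 7 or more at ZT6 were mostly shared, with 59935 listed at all 4 timepoints, 9713 at 3 and 4791 at 2. The same rule turned to the other timepoints gave 2091 interactions at ZT0 (2.88% of those with a score of 7 or more, interval 2.76 to 3.01%), 1976 at ZT12 (2.60%, interval 2.48 to 2.71%) and 1955 at ZT18 (2.58%, interval 2.47 to 2.69%). The ZT6 list was also the longest, with 154775 interactions against 146262 at ZT0, 151529 at ZT12 and 151347 at ZT18. With all lists cut to the same length the shares were 3.80% for ZT6 against 3.19% for ZT0, 2.80% for ZT12 and 2.77% for ZT18, so ZT6 was again the highest. Intervals cover counting error alone, and interactions of one bait are not independent of each other.

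The ZT6-only interactions lay on 2206 fragments listed as bait and touched 4853 fragments in all. Counting either end, 2553 of the 18165 baits had one, a share of 14.1%, against 11.3% for ZT0-only, 10.9% for ZT12-only and 10.9% for ZT18-only interactions. Of the 2206 baits, 1778 had 1, 311 had 2 and 117 had 3 or more, the most being 7. The turned sets had 57 baits with 3 or more at ZT0, 45 at ZT12 and 52 at ZT18.

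The highest score joined the promoter of Dscr3, which encodes an endosomal sorting protein, to the promoter of Dyrk1a, a protein kinase gene, 45.4 kb apart. The Dscr3 bait (chr16:94741728-94753973) and the Dyrk1a bait (chr16:94789723-94796725) were joined with a score of 51.88 at ZT6. The Dscr3 bait had 4 contacts at ZT6 and 0 at ZT0, ZT12 and ZT18. It was thus not listed at all outside ZT6, in contrast to the Dyrk1a bait, which had 16 contacts at ZT6 and between 9 and 10 at the other timepoints.

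The second highest score, 27.92, joined Ugt1a1, the enzyme that conjugates bilirubin, to a fragment of 178 bases 53.4 kb away that overlaps an exon of Hjurp, a chaperone gene of the centromeric histone (chr1:90108017-90110108 to chr1:90162332-90162509). The small fragment had 3 contacts at ZT6 and 0 at each of the other timepoints. Its other partners were Heatr7b1 (17.30, 37.9 kb away) and the bait of Hjurp and Trpm8 (15, 11.6 kb away). Its 3 contacts were therefore all ZT6-only, while the Ugt1a1 bait had 33, 38, 32 and 33 contacts at ZT0, ZT6, ZT12 and ZT18.

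Zmpste24, the protease that matures lamin A, was joined to Rlf, a zinc finger gene, with a score of 20.11 over 115.4 kb. The Zmpste24 bait (chr4:120769262-120772513) had 8 contacts at ZT6 and between 1 and 2 elsewhere. A bait of a U6 small nuclear RNA gene copy on chromosome 19 (chr19:53233286-53238393) reached the promoter of Xpnpep1, an aminopeptidase gene, with 21.03 over 122.3 kb, and its 3 contacts were all at ZT6. Nubpl, a gene for an assembly factor of respiratory complex I, contacted a fragment outside genes 537.5 kb away with 18.32, although its bait had fewer contacts at ZT6 (7) than at ZT0 (10), ZT12 (11) or ZT18 (12). The tenth score, 16.94, joined the histone gene pair Hist1h2ah and Hist1h2bk to Hist1h2bg across 1537.8 kb of the histone cluster. High scores thus occurred both on baits that were nearly unlisted elsewhere and on baits with similar numbers of contacts all day. Among the 30 highest scores, 15 joined promoters to each other and 14 had no contact of the same bait within 10 kb at another timepoint.

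Of the 10 highest scores, 3 shared one fragment, that of the start of Lamb2 (chr9:108380277-108383238, 2962 bases), which encodes a laminin chain of basement membranes. This fragment was the most recurrent of all, with 17 ZT6-only interactions, 16 of them as the contacted end and 1 as bait. It was listed with 28 contacts at ZT6, against 6 at ZT0, 9 at ZT12 and 12 at ZT18. The difference lay in promoter partners: at ZT6 24 of its contacts were other promoters, and at ZT0, ZT12 and ZT18 none was. The median score of its contacts was 7.33 at ZT6, against 5.49 at ZT0, 5.97 at ZT12 and 5.73 at ZT18, and the highest was 21.94, against 6.42, 6.55 and 8.04.

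**Figure D1:**
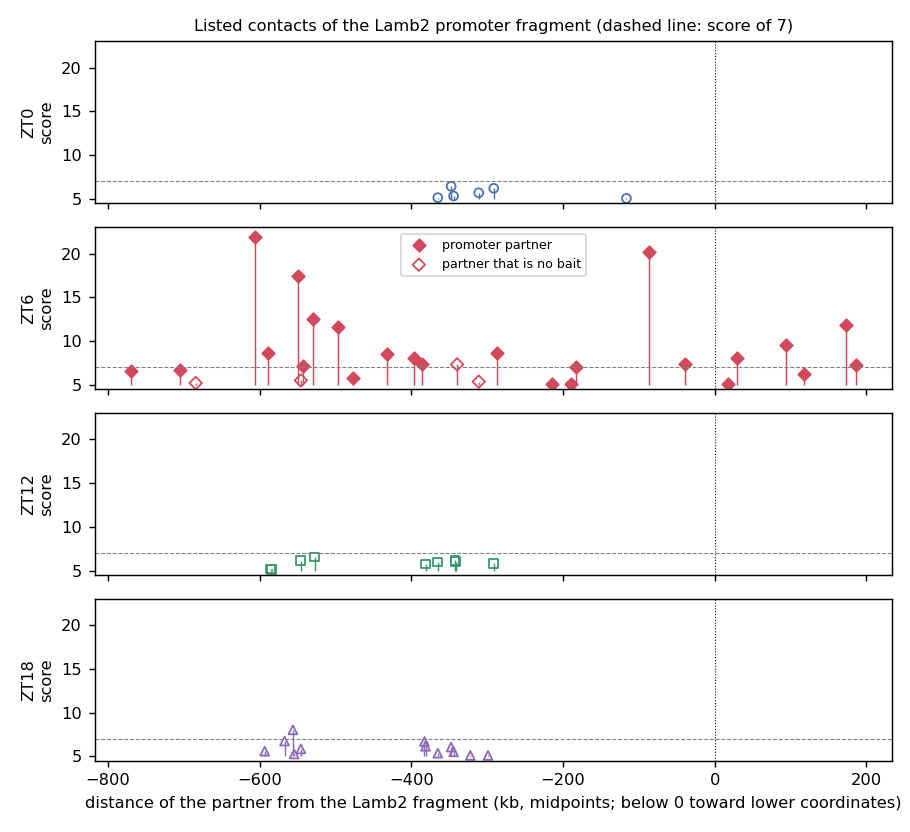
The listed contacts of the Lamb2 fragment at the 4 timepoints, 1 panel each: the x axis is the distance in kb from the Lamb2 fragment to the partner's midpoint (below 0 toward lower coordinates), the y axis the CHiCAGO score, filled symbols are promoter partners and open symbols other fragments. Promoter partners appear at ZT6 alone among the 4 lists, where scores reached 21.94, and the other timepoints show non-promoter contacts with scores up to 8.04.

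The promoter partners of Lamb2 lay on both sides of it within a gene-dense stretch of chromosome 9. The strongest were Rbm6, an RNA-binding protein gene (21.94, 606.0 kb away), 1700102P08Rik (20.22, 86.6 kb) and 4921517D21Rik (17.40, 549.0 kb). They were followed by Traip, a ubiquitin ligase gene (12.51), and by promoters that carry genes with circadian RNA, all of acrophase ZT12: Arih2 (11.81), Uba7 (11.63) and Wdr6 (9.51). Weaker ZT6-only partners were Bsn (8.58), Mon1a (8.57), Gmppb (8.48), Qars (8.05), Mst1 (7.99), BC048562 (7.41), Apeh (7.36), Slc25a20 (7.22) and Camkv (7.14). Rbm6 itself had 10 contacts at ZT6, against 7 at ZT0, 8 at ZT12 and 12 at ZT18. Without the Lamb2 fragment 2791 ZT6-only interactions were left.

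After Lamb2, the baits with most ZT6-only interactions fell into those that were rich in contacts all day and those that were nearly unlisted elsewhere. AC100600.1 (chr9:74718250-74719458) had 7, on 81, 109, 88 and 50 contacts at ZT0, ZT6, ZT12 and ZT18. Wnt5a, a secreted signalling ligand gene, also had 7, with scores from 7.04 to 8.98, all inside introns 426.5 to 723.8 kb away, on 59, 69, 51 and 60 contacts. Ubap2 had 6, on 41, 83, 29 and 50 contacts. Ncoa2, a coactivator of nuclear receptors, had 6, all within 128.0 kb, on 33, 60, 34 and 23 contacts. At each of these 4 baits ZT6 had the most contacts, and at each the number at ZT6 without the ZT6-only interactions (102, 62, 77 and 54 in that order) still exceeded those of the other timepoints.

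The Alox15 promoter, of a lipoxygenase gene, had 1, 10, 0 and 5 contacts at ZT0, ZT6, ZT12 and ZT18, of which 6 were ZT6-only. Olfr1162 had 0, 11, 0 and 0, of which 5 passed the score of 7, and all 5 led to other olfactory receptor genes (Olfr1133, Olfr1153, Olfr1157, Olfr1160 and Olfr73) with scores from 8.59 to 12.46. Olfr1099 had 0, 6, 0 and 0, and its 5 ZT6-only interactions led likewise to olfactory receptor gene starts. The bait of Ccdc32 and Rpusd2 had 0, 10, 0 and 0, and its 5 led to other promoters, with Gm14089 highest (15.76) and Spint1, an inhibitor of serine proteases, at 7.62. Olfr1162, Olfr1099 and the bait of Ccdc32 and Rpusd2 were thus listed at ZT6 and at no other timepoint, while Alox15 was listed at ZT0 and ZT18 too. At AC152394.1 the 5 ZT6-only interactions came with 17 contacts at ZT6 against 14 at ZT0, 19 at ZT12 and 5 at ZT18.

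**Figure D2:**
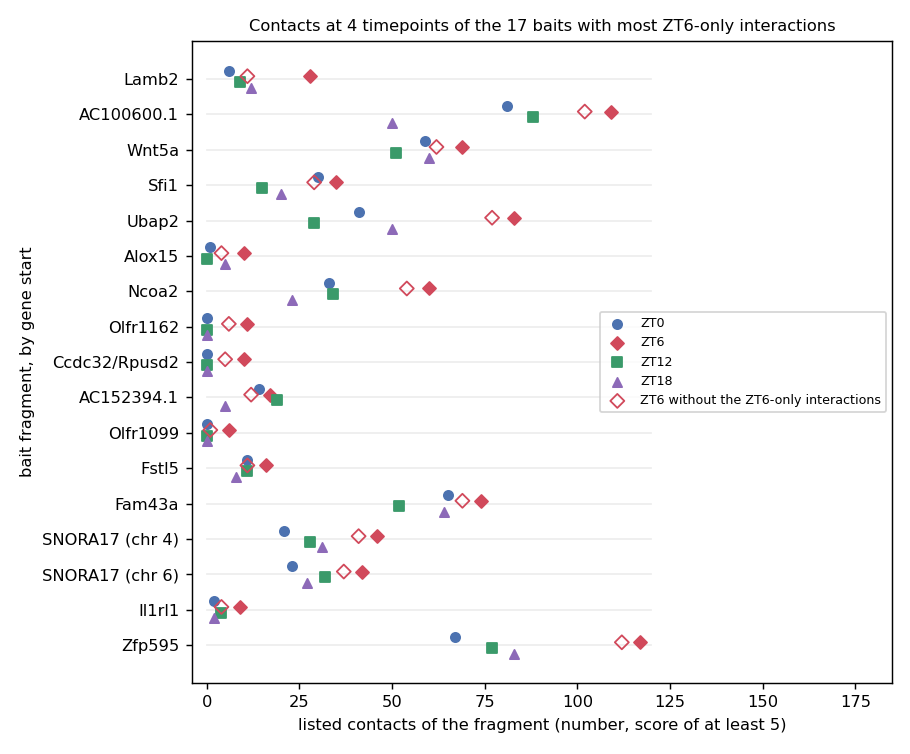
Number of listed contacts (score of at least 5) at ZT0, ZT6, ZT12 and ZT18 of the 17 baits with most ZT6-only interactions, with open diamonds for ZT6 after leaving out the ZT6-only interactions. ZT6 is the highest at most baits, as at Lamb2 (28 against 6 to 12), and AC152394.1 is an exception with 17 at ZT6 and 19 at ZT12.

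There were 21 baits with 3 or more contacts at ZT6 and 0 at the other timepoints, against 5 such baits at ZT0, 8 at ZT12 and 5 at ZT18. Of the 21, 12 had ZT6-only interactions. They included H2-M10.1, a non-classical histocompatibility gene, with 4 contacts, and Fam111a, with 4. In all, 63 ZT6-only interactions lay on 42 baits that had no contact at another timepoint, a share of 2.24% (1.76 to 2.86%), against 1.10% for ZT0-only, 1.16% for ZT12-only and 0.972% for ZT18-only interactions. Their median score was 8.20, and 37 of them (58.7%) joined promoters.

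Baits with ZT6-only interactions were then described by their other contacts. These contacts are not an independent check, because the baits were chosen through a pair that scored high at ZT6 alone. ZT6-exclusive pairs with scores from 5 to below 7 also remain in the counts at ZT6. Together the 2206 baits had 46497 contacts at ZT6, or 43585 without the ZT6-only interactions, against 39761 at ZT0, 40095 at ZT12 and 39905 at ZT18. At 33.9% of them the number at ZT6 without these exceeded that of every other timepoint, and at the 117 baits with 3 or more this share was 53%. It was 19.3% over all baits, which are unlike these, with a median of 5 contacts at ZT6 against 15. The turned shares were 22.3% (ZT0), 26.7% (ZT12) and 22.2% (ZT18) for baits with at least 1, against 13.1%, 16.2% and 16.3% of all baits. Scores moved the same way. Over interactions listed at all 4 timepoints, which none of the ZT6-only interactions is, the score at ZT6 minus the mean of the other 3 had a median of 0.214 over 1902 baits (0.157 to 0.278). The median over all 12983 baits was -0.157. At baits with 3 or more ZT6-only interactions it was 0.903 (0.477 to 1.287, 100 baits), and 75% of these baits had a difference above 0. Baits of the turned sets also lay above all baits at their own timepoint, with 0.015 against -0.270 at ZT0, 0.242 against -0.007 at ZT12 and 0.280 against 0.073 at ZT18.

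Most ZT6-only interactions had a neighbour at another timepoint. For 2064 of them (73.5%, 71.8 to 75.1%) the same bait had a listed contact within 10 kb of the other end at ZT0, ZT12 or ZT18, and for 1318 (46.9%) at all 3. The share was 76.3% for ZT0-only, 77.0% for ZT12-only and 73.3% for ZT18-only interactions, and 93.3% for interactions listed at all 4 timepoints. By timepoint, 68.9% had a neighbour at ZT6 itself, 60.6% at ZT0, 60.4% at ZT12 and 61.3% at ZT18. The fragments directly next to the contacted one were listed for the same bait in 27.2% of cases at ZT6 (25.4% when other ZT6-only interactions were left out), and in 20.7%, 20.5% and 20.2% at ZT0, ZT12 and ZT18. At the tenth fragment on either side the shares were 16.9%, 14.7%, 14.5% and 13.5% at ZT6, ZT0, ZT12 and ZT18.

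**Figure D3:**
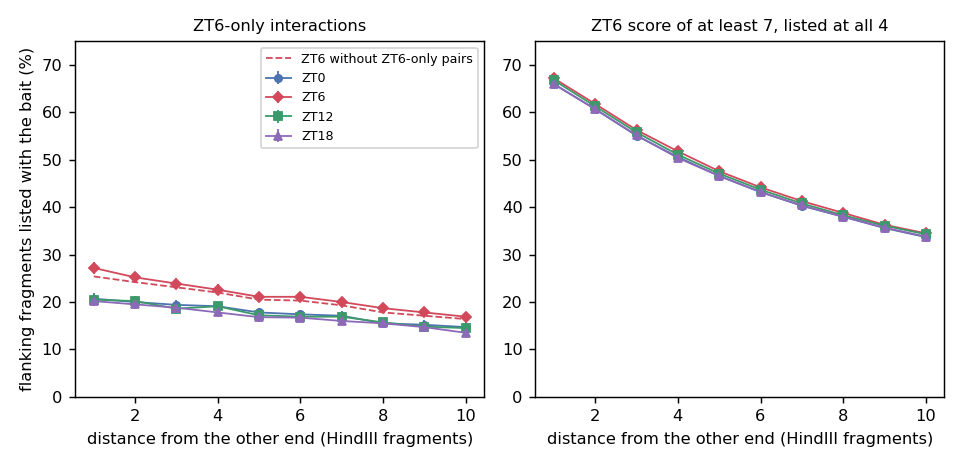
Share of flanking fragments (%) that were listed with the same bait, by their distance from the contacted end in HindIII fragments, for ZT6-only interactions (left) and interactions listed at all 4 timepoints (right), with one line per timepoint and a dashed line for ZT6 without other ZT6-only interactions. Beside the ZT6-only interactions the ZT6 line is highest, at 27.2% for the adjacent fragment against 20.2 to 20.7% at the other timepoints.

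The ZT6-only interactions without such a neighbour, 744 in all, were more often contacts between promoters. Of the 744, 46.4% joined promoters to each other (345, 42.8 to 50%), against 5.96% of the 2064 with a neighbour (5.02 to 7.06%). Among all ZT6-only interactions 468 were promoter-promoter contacts, 16.7% (15.3 to 18.1%), against 18.7% at ZT0-only, 18.5% at ZT12-only, 22.6% at ZT18-only and 17.7% at those listed at all 4 timepoints. The same contrast held in the turned sets, where 52.5% (ZT0), 53.8% (ZT12) and 61.1% (ZT18) of interactions without a neighbour were promoter-promoter contacts. With a score of 10 or more, 46 of 140 ZT6-only interactions were of this kind, 32.9% (25.6 to 41%), against 19.0% (18.6 to 19.4%) of interactions with such a score that were listed at all 4 timepoints.

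ZT6-only interactions spanned longer distances than those listed all day. Their median distance between fragment midpoints was 275 kb (265 to 287 kb, from binomial order statistics), against 128 kb (127 to 130 kb) for interactions listed at all 4 timepoints. Interactions listed at all 4 with scores from 7 to below 10, the range of most ZT6-only interactions, had a median of 119 kb. The turned sets were closer, with 273 kb for ZT0-only, 242 kb for ZT12-only (229 to 253 kb) and 265 kb for ZT18-only. A distance over 150 kb was spanned by 2135 of the 2795 within a chromosome, 76.4% (74.8 to 77.9%), against 79.4% at ZT0-only, 70.9% at ZT12-only, 75.1% at ZT18-only and 42.8% at those listed at all 4. A distance over 1 Mb was spanned by 5.40% (4.62 to 6.30%), against 0.835% of those listed at all 4.

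**Figure D4:**
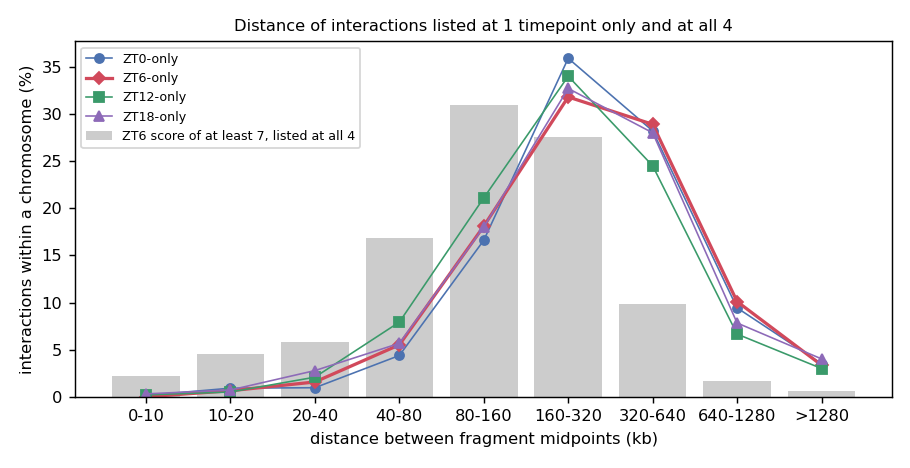
Distance between fragment midpoints (kb, doubling bins) of interactions listed at 1 timepoint only (lines) and of interactions with a ZT6 score of 7 or more listed at all 4 timepoints (bars), as a share of each set within a chromosome. The ZT6-only line follows the lines of the other timepoints and has 28.9% of interactions from 320 to 640 kb, where the bars have 9.88%.

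Only 13 ZT6-only interactions joined different chromosomes, and they came from few places. The bait of Sfi1, a centrosomal protein gene (chr11:3091411-3099770), had 6 of them, with Pcdha11 (11.34), Lix1, Zfp760, Cacng8 and Clec4g (8.32 each) and an intronic fragment of chromosome 1 (7.32). Sfi1 had 30, 35, 15 and 20 contacts at ZT0, ZT6, ZT12 and ZT18. The neighbouring bait of Gm11399 and Gm11400 had 3 more, each at 7.32, so 9 of the 13 came from this end of chromosome 11. The highest were those of the bait of Hjurp and Trpm8 with chromosome 10 (15.27) and of Ugt1a1 with chromosome 4 (14.05), and 6 of the 13 had an end within chromosome 1 from 90 to 91 Mb.

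By chromosome, ZT6-only interactions made up between 3.00% (chromosome 17) and 4.24% (chromosome 13) of autosomal interactions with a score of 7 or more, and 7.43% on chromosome X (60 of 807, 5.82 to 9.45%). The turned sets on chromosome X were at 4.38% (ZT0), 3.29% (ZT12) and 4.49% (ZT18). Of 1846 windows of 1 Mb, 1091 held at least 1 and 18 held 10 or more. The window with most was 99 to 100 Mb of chromosome 11, the keratin cluster, with 36 of 386 interactions (9.33%) on 24 baits. The histone cluster at 23 to 24 Mb of chromosome 13 had 29 of 677 (4.28%). Among the 18 windows with 10 or more, the highest shares were in an olfactory receptor cluster of chromosome 2, with 13 of 65 (20%) at 85 to 86 Mb, and around Ncoa2 on chromosome 1, with 10 of 52 (19.2%). The neighbouring olfactory receptor window at 86 to 87 Mb of chromosome 2 had 9 of 38 (23.7%).

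Families of clustered genes known from sensory cells, neurons and skin had the highest shares of the lists with at least 60 interactions with a score of 7 or more at ZT6. Of the 657 interactions with a score of 7 or more of olfactory receptor promoters at ZT6, 73 were ZT6-only, 11.1% (8.93 to 13.7%), and 22 of them joined olfactory receptor promoters at both ends. The turned shares for this family were 9.25% (ZT0), 5.07% (ZT12) and 6.31% (ZT18), and the interval at ZT6 held the ZT0 value. Vomeronasal receptors, the pheromone sensors, had 8 of 66 (12.1%, 6.27 to 22.1%), led by Vmn1r1 (8.80) and Vmn1r40 (8.73). Their turned shares were 7.69% (ZT0), 2.33% (ZT12) and 2.13% (ZT18). Protocadherins, adhesion proteins of neurons, had 8 of 75 (10.7%), led by Pcdha11 (11.34) and Pcdhb18 (10.14). The turned shares of protocadherins were 3.90% (ZT0), 1.75% (ZT12) and 8.62% (ZT18), and the interval at ZT6 held the ZT18 value. Keratins and their associated proteins had 36 of 362 (9.94%, 7.27 to 13.5%), against 7.02%, 4.07% and 6.48% turned to ZT0, ZT12 and ZT18, led by Krt42 (10.30, 852.3 kb away) and Krt33b (9.76, 562.3 kb). Krt10, of the outer skin layers, had 9.45, 9.21 and 7.82, on 6, 9, 3 and 2 contacts at ZT0, ZT6, ZT12 and ZT18, while Krt33a had 73, 72, 66 and 61, so the keratin promoters did not share one course over the day. Counted by promoter, 12.5% of olfactory and 13.9% of vomeronasal receptor promoters had a ZT6-only interaction, against 14.1% of all baits. The receptor families were thus not raised by this count, while protocadherins were at 38.1% and keratins at 29.5%. The intervals of these families are wide, and the lists hold no RNA level.

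Replication-dependent histone genes, which package newly made DNA, had ZT6-only interactions at 22 of their 36 promoter fragments (61.1%, against 14.1% of all baits). Their share of interactions was nevertheless close to the whole, 36 of 807 or 4.46% (3.24 to 6.11%), and these fragments had many contacts at every timepoint. The number of histone promoters was 21 at ZT0, 9 at ZT12 and 18 at ZT18 in the turned sets. The histone interactions were long, with a median of 1710 kb, and most crossed between the parts of the cluster on chromosome 13. The highest after Hist1h2ah and Hist1h2bk was that of the bait of Hist1h2bf, Hist1h2ad and Hist1h3d with the fragment of Hist1h2an and Hist1h2bp (11.79, 1786.2 kb away), at a bait with 43, 41, 36 and 42 contacts at ZT0, ZT6, ZT12 and ZT18.

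**Figure D5:**
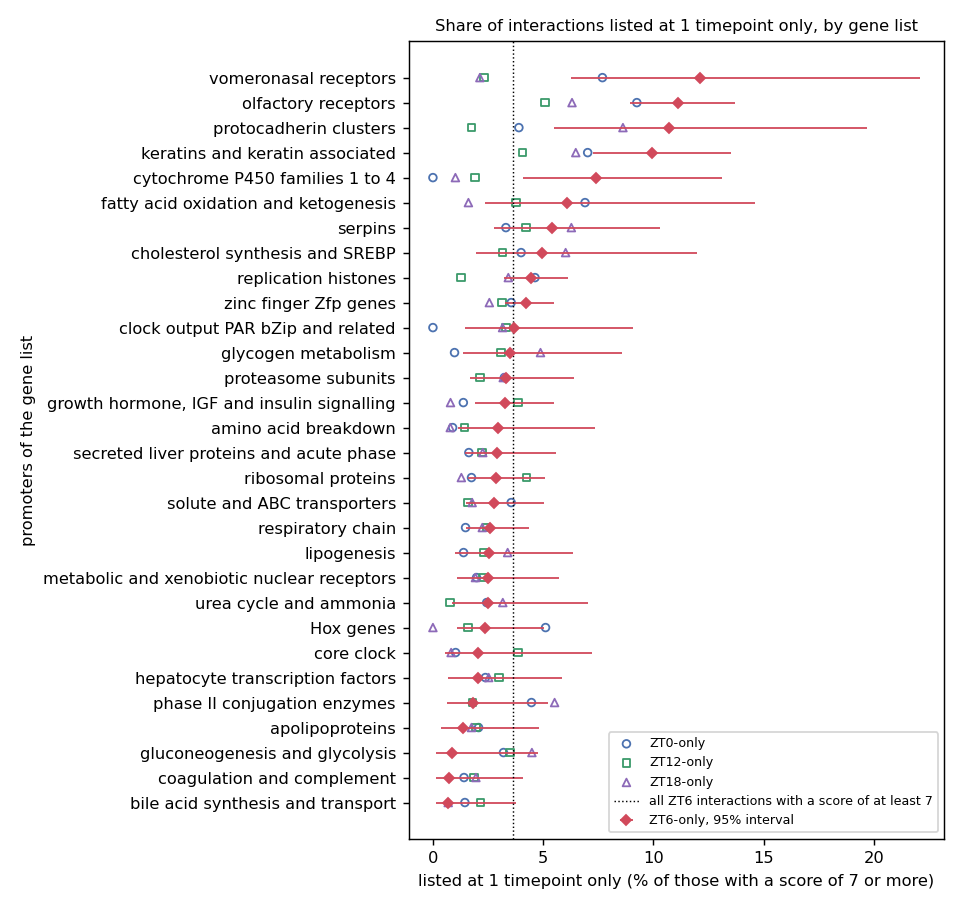
Share (%) of interactions with a score of 7 or more at a timepoint that were listed at that timepoint only, for promoters of each gene list with at least 60 such interactions at ZT6; filled diamonds with 95% Wilson intervals are ZT6, open symbols the other timepoints, and the dotted line is all ZT6 interactions (3.64%). Of the lists drawn, receptor, protocadherin and keratin families lie highest, and bile acid genes lowest at 0.680%, with an interval that holds the dotted line.

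Liver genes varied around the value of all interactions. Cytochrome P450 genes of families 1 to 4, the oxidising enzymes of drugs, steroids and fatty acids, had 10 of 135 (7.41%, 4.07 to 13.1%) at 7 of 39 promoters. The turned shares of interactions were 0% at ZT0, 1.90% at ZT12 and 1.02% at ZT18. The 7 promoters were 17.9% of the family's (8.98 to 32.7%), an interval that held the 14.1% of all baits. The highest score was that of Cyp2d22 with AC113593.1 (11.08, 31.3 kb away), where the Cyp2d22 promoter had 2, 6, 5 and 5 contacts at ZT0, ZT6, ZT12 and ZT18. Cyp1b1 followed with a U6 copy (9.12), on 1, 5, 2 and 0 contacts. Cyp2e1, which oxidises ethanol, had 8.44 over 592.4 kb and 7.73 to Cd163l1, on 2, 5, 3 and 2 contacts. The others were Cyp4v3 (8.07), Cyp4a14 (7.23), Cyp2g1 (7.20) and Cyp2b19 with 3 (7.11 to 7.4). The lower end of the interval for the family's share of interactions lay above the 3.64% of all interactions, from 10 interactions. They are not independent, since 3 share the Cyp2b19 bait and 2 the Cyp2e1 bait. The family is also one of many lists, and the interval makes no allowance for their number.

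Growth hormone, IGF and insulin signalling genes had 13 of 400 (3.25%) at 7 of 23 promoters (30.4%, 15.6 to 50.9%, against 14.1% of all baits). In the turned sets 5 (ZT0), 8 (ZT12) and 3 (ZT18) of these promoters had one. Irs1, the insulin receptor substrate, had 3 of the 13 ZT6-only interactions, the highest at 13.64 over 957.8 kb, on 43, 45, 29 and 39 contacts. Igf1, the main growth factor released by the liver, had 8.23 and 8.13, and Ghr, the growth hormone receptor, had 7.32. The 13 interactions all led to fragments that were no bait, as did 2340 of all 2808 ZT6-only interactions.

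Among secreted liver proteins 8 of 277 were ZT6-only (2.89%), with 3 at Ttr, the thyroid hormone carrier (highest 8.66), and 2 at Apcs, an acute phase protein (7.60 and 7.07). Lists with low shares were bile acid synthesis and transport (0.680%, 0.120 to 3.75%, the one being Acox2 at 8.63) and coagulation and complement (0.741%, 0.131 to 4.08%, C8g at 7.29). Likewise low were gluconeogenesis and glycolysis (0.870%, 0.154 to 4.76%, Pgk1 at 7.85) and apolipoproteins (1.35%, 0.371 to 4.79%, Apob at 7.52 and Apoa5 at 7.29). Each of these lists rested on 1 or 2 ZT6-only interactions, and each interval held the 3.64% of all interactions. In glycogen metabolism the highest were Pygl, the liver glycogen phosphorylase (10.55), and Gys1, a glycogen synthase (8.15). In cholesterol synthesis they were Sqle, which makes squalene epoxide (10.46), and Sc4mol (8.36). In lipid synthesis they were Elovl5 (8.21) and Fasn, the fatty acid synthase (7.45).

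Among amino acid enzymes, Tdo2, which opens the tryptophan ring, scored 8.69 on a bait with 7, 24, 18 and 8 contacts at ZT0, ZT6, ZT12 and ZT18. Nags, which makes the activator of the urea cycle, scored 8.74 with Ubtf on 9, 13, 12 and 9 contacts. Among hepatocyte transcription factors 3 of 16 promoters had one (18.8%, against 14.1% of all baits), those of Onecut1 (7.94), Nr5a2 (7.28) and Foxa2 (7.1). Among nuclear receptors 4 of 22 promoters had one (18.2%), with the thyroid hormone receptors Thrb (9.18) and Thra (8.76) among them. Promoters of Kupffer cell, cholangiocyte and blood cell markers had none, from 3, 31 and 32 interactions with a score of 7 or more. Stellate cell markers had 2 of 41 (4.88%, 1.35 to 16.1%) and liver endothelial markers 1 of 42 (2.38%, 0.422 to 12.3%). All these lists were too small to separate from the 3.64% of all.

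Circadian gene promoters were those of genes on the study's list of rhythmic RNAs from the same experiment, each with an acrophase, the timepoint of its highest RNA. Of the ZT6-only interactions, 189 (6.73%, 5.86 to 7.72%) had such a promoter at an end, against 9.56% of those listed at all 4 timepoints and 7.46%, 8.86% and 7.88% of the ZT0-only, ZT12-only and ZT18-only sets. Promoters of acrophase ZT6 were at an end of 48 (1.71%, 1.29 to 2.26%), against 2.45% of those listed at all 4. Seen from the promoters, 42 of 299 with acrophase ZT6 had a ZT6-only interaction (14.0%), against 16.5% with acrophase ZT0, 11.6% with ZT12, 12.8% with ZT18 and 14.1% of other baits. No ZT6-only interaction had circadian promoters at both ends. The same count is not given for other interactions, so this is a description and nothing is drawn from it. In a summary that came with the study, the lengths of the lists labelled ZT6, ZT12 and ZT18 stand under other timepoints. Here the timepoint of each list is that of the sample labels, and all statements, those on acrophase included, hold for that order.

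The highest scores at promoters of acrophase ZT6 were those of Dusp5, a phosphatase of the kinase ERK (9.81, 122.7 kb away), Mterfd2 with Farp2 (9.78), Eif2c4, an Argonaute gene (9.51), Kdm3a, a histone demethylase gene, with Immt (9.30), Etfdh, of fatty acid oxidation (9.15), and Rbms1 (9.03). Dusp5 had 9, 13, 8 and 9 contacts at ZT0, ZT6, ZT12 and ZT18. Etfdh had 5, 8, 3 and 5, and Rbms1 had 15, 18, 8 and 9. The Immt bait had 2, 7, 2 and 2. The other promoters had their most contacts elsewhere, with 14, 15, 19 and 14 at Eif2c4, 3, 5, 3 and 7 at Kdm3a and 42, 30, 28 and 22 at Mterfd2.

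Circadian promoters of other acrophases, named here after their values were seen, reached higher scores. With acrophase ZT12 they were led by Plekha8, joined to Gars, a tRNA synthetase gene (14.29, 440.9 kb apart), where the Gars bait had 2, 9, 2 and 3 contacts at ZT0, ZT6, ZT12 and ZT18. Acbd5, of peroxisomes, followed with 12.35 over 118.3 kb, on 20, 33, 25 and 27 contacts, and Pitpnc1, a phospholipid carrier, with 11.89 over 255.4 kb, on 10, 17, 13 and 8. The Arih2 bait, also of this acrophase, had 6, 5, 7 and 7 contacts, so a number highest at ZT6 was not shared by all of them. With acrophase ZT0 the leading one was 1190005F20Rik (13.69, 1002.4 kb), on 29, 41, 25 and 28 contacts, followed by Pxmp4, a peroxisomal membrane protein gene, with Cbfa2t2 (10.67). With acrophase ZT18 the leading ones were Shh, a morphogen gene (11.64, 558.0 kb, on 12, 18, 12 and 17 contacts), and Plod1, a collagen-modifying enzyme gene (11.07, 139.4 kb, on 21, 31, 23 and 22).

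Of 13 core clock promoters, 2 had a ZT6-only interaction (15.4%, against 14.1% of all baits), while 1 had a ZT0-only, 3 a ZT12-only and 1 a ZT18-only interaction. Nr1d1, whose acrophase is ZT6, contacted an exonic fragment 76.8 kb away with 7.17, on 6, 10, 9 and 8 contacts at ZT0, ZT6, ZT12 and ZT18, and had contacts within 10 kb of that fragment at every timepoint. Bhlhe40, a transcriptional repressor of the clock with acrophase ZT12, contacted a fragment outside genes 452.9 kb away with 7.76, on 108, 106, 128 and 113 contacts. The promoters of Arntl, Clock, Npas2, Per1, Per2, Per3, Cry1, Cry2, Nr1d2 and Bhlhe41 had none. Among clock output factors Hlf had 7.52 and Nfil3 had 7.47.

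The contacted fragments that were not baits numbered 2340. Of these 40.1% (38.2 to 42.1%) lay outside annotated genes, 29.7% overlapped an exon, 27.2% lay within introns and 2.99% held a gene start. Fragments overlapping a gene made up 59.9% (57.9 to 61.8%), against 63.1% for interactions listed at all 4 timepoints, 58.7% for ZT0-only, 63.7% for ZT12-only and 63.3% for ZT18-only. The median length was 2265 bases and the GC content 43.4%, against 2292 bases and 45.0% for interactions listed at all 4. The bait fragments had a GC content of 46.5%, against 48.4%. The ZT6-only fragments thus shared the lower GC content of ZT0-only fragments (43.4%) and not that of ZT12-only (45.0%) or ZT18-only (45.4%).

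Motifs of clock and liver factors were counted in the central 300 bases of 2284 of these fragments, on both strands. The E-box CACGTG, the site of the Clock and Arntl pair, was in 3.50% (2.82 to 4.34%), against 3.71% of all contacted fragments. The D-box TTANGTAA was in 3.72% against 3.56%, and the ROR element TAGGTCA in 3.02% against 3.02%. The Nr5a2 site CAAGGTCA was in 1.75% (1.29 to 2.38%) against 2.02%, and the AP-1 site TGANTCA in 8.10% (7.05 to 9.29%) against 8.95%. Each interval held the share of all contacted fragments. A match is only a match of letters.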

How the data were processed

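Reads were mapped and filtered by the authors with HiCUP on build mm9, and CHiCAGO was run on the combined pools of each timepoint. Each deposited value is the CHiCAGO score of a fragment pair, kept from a score of 5. Timepoints were taken from the sample labels, and 0 columns were left unmapped. Pairs were treated as unordered. Of 129887 listed fragments, 129886 were identical to a HindIII fragment of mm9, and names came from GENCODE of that build. Shares have 95% Wilson intervals and medians binomial order-statistic intervals, computed with python 3.11.15, pandas 2.3.3, numpy 2.4.6 and scipy 1.17.1, figures with matplotlib 3.10.9. The code was tested on simulated data. No test between timepoints was possible.

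Members, gene lists and named genes were chosen with earlier results of these data known. The list of circadian genes with acrophases is the study's, chosen on RNA of the same experiment. Named are the 10 highest scores, the 10 baits with most members, core clock genes with a member, the 6 highest of acrophase ZT6 and the leading promoters of each gene list. Other genes in the text were chosen after their values were seen. Promoters are RefSeq sequences on GRCm38.p6: 130 of 198 genes sought were matched.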

Additional observations from a re-analysis of the deposited data

How the results depend on the processing

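No paired analysis was possible because single pools have no list of their own, and for the same reason no pool could be left out in turn. Of the alternative values, 9 stayed within the interval or within 1.5 times the value reported, 34 moved and 1 reversed. Unless a reason stands beside a value, its cause was not tested. A score minimum of 8 left 948 interactions (1.65%). A minimum of 10 left 140 (0.410%), with a median distance of 382 kb, 82.4% over 150 kb, 32.9% promoter-promoter, 63.6% with a neighbour, 11.4% with a circadian promoter, 57.4% of other ends overlapping a gene and 3 baits with 3 or more. There the motif shares, of few fragments, were 4.40% (E-box), 6.59% (D-box), 5.49% (ROR element) and 1.10% (Nr5a2 site).

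Requiring no contact of the same bait within 10 kb elsewhere left 744 (0.963%), with 337 kb, 82.3%, 46.4% promoter-promoter, 7.93% circadian and 16 baits with 3 or more. Lists of equal length gave a share of 3.80%. The share with a neighbour was 66.8% within 5 kb, 82.3% within 25 kb and 50.5% for the adjacent fragment. Circadian genes restricted to those with oscillating introns gave 1.92% circadian, from a shorter list. With the midpoint of the other end in place of any overlap, 56.4% lay in a gene. The median score difference of shared contacts was -1.160, and so reversed, when the highest of the other 3 scores was taken in place of their mean, which lowers it by construction, and was 2.456 percentile points with ranks. In whole fragments, which are longer, motif shares were 28.1% (E-box), 27.7% (D-box), 24.7% (ROR element), 17.5% (Nr5a2 site) and 50.9% (AP-1 site). Leaving out the Lamb2 fragment, an alternative chosen after seeing the data, gave 16.2% promoter-promoter, and leaving out baits without a contact elsewhere, likewise, left 2745 interactions.

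Depth limits what absence from a list means, since reads were not analysed here.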
